A study of Homo sapiens with 12 samples.

Results

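Histone acetyltransferases and the nuclear receptor coactivators that work with them were followed through a microarray study of Wnt signaling in human cells. The group comprised p300 (EP300), CREB-binding protein (CREBBP), GCN5 (KAT2A), PCAF (KAT2B), TIP60 (KAT5), and the p160 coactivators NCOA1, NCOA2, and NCOA3. Its members were taken by name, and every probe whose RefSeq accession belongs to one of these genes was used. They are 8 of 17240 genes and 14 of 41000 probes on the array. EP300 had 2 probes, CREBBP and NCOA3 had 3 each, KAT2B had 2, and KAT2A, KAT5, NCOA1, and NCOA2 had 1 each.

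RNA was measured on 12 dual-color Agilent Whole Human Genome arrays. Ls174T comes from a colorectal tumor and has constant Wnt signaling, and HEK293T is an embryonic kidney line in which the pathway is switched on by adding Wnt3A. Ls174T cells received a non-targeting siRNA pool (si-control) or pools against β-catenin, MLLT10/AF10, BRG1, or p300, and got no added medium. HEK293T cells received si-control followed by control conditioned medium, or si-control, si-MLLT10, si-DOT1L, si-BRG1, or si-P300 followed by Wnt3A conditioned medium. All siRNA pools were used at 15 nM for 72 h, and the conditioned media were left on for 9 h. The HEK293T knockdowns were therefore all made in Wnt3A-treated cells, and their control was the si-control Wnt3A array. The 10 other conditions were each hybridized to 1 array with the cell RNA in Cy3 and universal human reference RNA in Cy5. RNA of β-catenin-depleted Ls174T cells was instead hybridized directly against si-control RNA on a pair of arrays with exchanged dyes, which count as 1 replicate. This follows the sample labels, while the methods of the study describe reference RNA for every sample. The mean ratio of the pair correlated with the si-control reference array at r = 0.0076 over 17535 features, whereas the si-MLLT10 and si-control reference arrays correlated at r = 0.989.

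Each condition was represented by 1 biological replicate. No difference between conditions has a replicate check, no test was made, and the error given with each value is the log2 error that the Feature Extraction program states for the ratio. A difference between arrays therefore carries the errors of both, but not the spread between cultures. A probe was called changed when it passed 2-fold in Ls174T or 1.5-fold in HEK293T cells. The arrays lay on 5 slides. The si-control and si-MLLT10 arrays of Ls174T and the si-BRG1 and si-P300 arrays of HEK293T shared 1 slide, the si-BRG1 and si-P300 arrays of Ls174T shared another, and the control medium, si-MLLT10, and si-DOT1L arrays of HEK293T shared one more. The si-control Wnt3A array was the only one of its slide, so in comparisons with that array the slide and the condition cannot be told apart. The same holds in Ls174T cells for BRG1 and p300 depletion against si-control, since those arrays lay on another slide than si-control. From 18175 to 23161 features were well-measured on the β-catenin pair and from 27781 to 31088 on the reference arrays, which means a signal over 2-fold above the local background in either channel.

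The cell lines were checked against marker genes. Of 10 intestinal epithelial markers, 8 were over 2-fold higher in the si-control Ls174T array than in the HEK293T control medium array, among them VIL1 with a log2 difference of 10.58 and CDH17 with 7.46, while CDX2 (0.44) and MUC2 (0.44) were not. Of 5 markers of HEK293T cells with a matched probe, NEFL, NEFM, and VIM were over 2-fold higher in HEK293T cells, with Ls174T minus HEK293T log2 differences of -8.40, -9.65, and -5.94. SOX11 was well above background in neither line, and LHX1 differed by -0.83. The siRNA targets other than p300 were lowered as labelled. CTNNB1, which encodes β-catenin, changed by -2.70 and -2.49, MLLT10 by -1.42 in Ls174T and -1.76 in HEK293T cells, and SMARCA4, which encodes BRG1, by -2.24 to -2.53 in Ls174T and -3.95 to -4.00 in HEK293T cells. For DOT1L, 2 of 3 probes changed by -1.41 and -1.97 and the remaining probe by 0.17.

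p300 and CREB-binding protein are closely related, large coactivators that acetylate histones and are brought to promoters and enhancers by transcription factors. Both can bind the C-terminal part of β-catenin, and both take part in the activation of Wnt target genes. KAT2A and KAT2B are the catalytic subunits of the SAGA and ATAC coactivator complexes, KAT5 is the catalytic subunit of the TIP60 complex, and the p160 proteins are scaffolds that bind nuclear receptors and bring in p300 and CREB-binding protein. The arrays measure their mRNA only, and say nothing of protein or of acetyltransferase activity.

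The promoters of the p300 and CREB-binding protein genes are shown as the regulatory sequences of the pair of paralogs whose mRNAs are compared below. Nothing in these arrays reads the promoters themselves. The windows are the 250 bases before the outermost annotated start of each gene, from RefSeq on GRCh38.p14, at chr22:41092342-41092591 on the plus strand for EP300 and chr16:3880714-3880963 on the minus strand for CREBBP. Capitals mark the half-site of the cyclic AMP response element, TGACG, read on both strands.
EP300: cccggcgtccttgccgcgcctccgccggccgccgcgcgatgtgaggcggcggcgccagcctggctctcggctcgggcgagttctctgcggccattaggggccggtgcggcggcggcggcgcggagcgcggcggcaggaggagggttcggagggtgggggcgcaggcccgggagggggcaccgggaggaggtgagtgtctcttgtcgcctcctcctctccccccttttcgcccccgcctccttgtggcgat
CREBBP: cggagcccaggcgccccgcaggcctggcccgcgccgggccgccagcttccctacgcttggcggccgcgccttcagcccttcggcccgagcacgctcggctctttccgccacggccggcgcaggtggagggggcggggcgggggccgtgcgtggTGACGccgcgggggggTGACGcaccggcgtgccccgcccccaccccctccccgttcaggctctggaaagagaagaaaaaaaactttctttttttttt
The CREBBP window held 2 such half-sites and the EP300 window 0, as did the window of a second annotated CREBBP start, at chr16:3880121-3880370. Neither printed window held the core letters of a TCF/LEF site, CTTTG on either strand. Over 35116 promoter windows of the same length, 21.2% held the half-site and 42.1% the TCF/LEF core. Both printed windows were rich in G and C, at 76.8% for EP300 and 72.4% for CREBBP.

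p300 depletion lowered EP300 mRNA in HEK293T cells by both probes, and in Ls174T cells by 1 of 2 probes past the threshold. In HEK293T cells, probe A_23_P40693 read a log2 ratio to the reference RNA of 0.84 in control medium, 0.48 with Wnt3A, 0.25 after MLLT10/AF10, 0.26 after DOT1L, and 0.86 after BRG1 depletion, and -1.87 after p300 depletion. Probe A_24_P7887, which is printed in 10 spots on each array, read 0.70, 0.49, 0.99, 0.93, and 1.29 on the same 5 arrays and -2.36 after p300 depletion. The si-P300 array thus stood below all others by both probes. The difference to the si-control Wnt3A array was -2.35 ± 0.35 (program error) for the former and -2.98 ± 0.44 for the latter. For A_24_P7887 only 1 of 9 spots remained well above background in the depleted cells, so that its signal in the sample channel gives a bound, at least 3.61-fold lower than in the control. This bound compares the sample channel of the arrays after scaling them to each other, with the signal of the depleted array set no lower than the dimmest one well above background.

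In Ls174T cells the ratio to the reference RNA fell less by both probes. The sample channel of A_24_P7887, scaled in the same way, was 4.31-fold lower there, beside the bound of 3.61-fold in HEK293T cells. The order of the lines thus depends on the measure, and the depleted signals lay near background. Probe A_24_P7887 read 0.08 in si-control, -0.05 after MLLT10/AF10, and -0.01 after BRG1 depletion, against -1.26 after p300 depletion, a change of -1.31 ± 0.40 to si-control. Its spots ranged from -0.21 to 0.36 on the si-control array and from -1.81 to -0.95 on the si-P300 array, so they did not overlap, and 4 of 8 spots were still well above background. Here and for CREBBP below, the spots of 1 array share the same RNA. Their spread does not include that between cultures or slides. With a normexp background correction this change shrank to -0.15, and to -0.57 when outlying backgrounds were replaced, short of the threshold in both. Probe A_23_P40693 read -2.31, -2.50, and -2.41 on the 3 other arrays and -2.91 after p300 depletion, a change of -0.60 ± 0.48 that did not pass 2-fold and turned to 0.88 with normexp. Its signal in the depleted cells was not well above background.

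Measured against the BRG1-depleted array of the same slide and cell line, A_24_P7887 differed in p300-depleted cells by -1.26 ± 0.39 in Ls174T and -3.70 ± 0.44 in HEK293T cells. A_23_P40693 differed by -0.50 ± 0.48 and -2.73 ± 0.35. Both arrays of each of these differences lay on 1 slide. In the depleted cells 3 of 7 spots of A_24_P7887 in Ls174T and 1 of 10 in HEK293T were well above background, as was the spot of A_23_P40693 in HEK293T but not in Ls174T cells, so the values for A_24_P7887 and the Ls174T value of A_23_P40693 rest largely on spots that were not. The sample channel put A_24_P7887 at least 9.23-fold lower in HEK293T cells. Over all members, EP300 included, 1 of 12 probes passed 2-fold in this comparison in Ls174T cells, beside 2.34% of all probes. In HEK293T cells 6 of 12 passed 1.5-fold, all lower, beside 20.2% of all probes in either direction and 10.6% lower. The 1 was a probe of EP300, and the 6 held both probes of EP300, the target of the siRNA. With normexp the counts were 0 and 5, and with outlying backgrounds replaced 0 and 3. The share of all probes that passed was not counted under such alternatives, here and below.

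**Figure D1:**
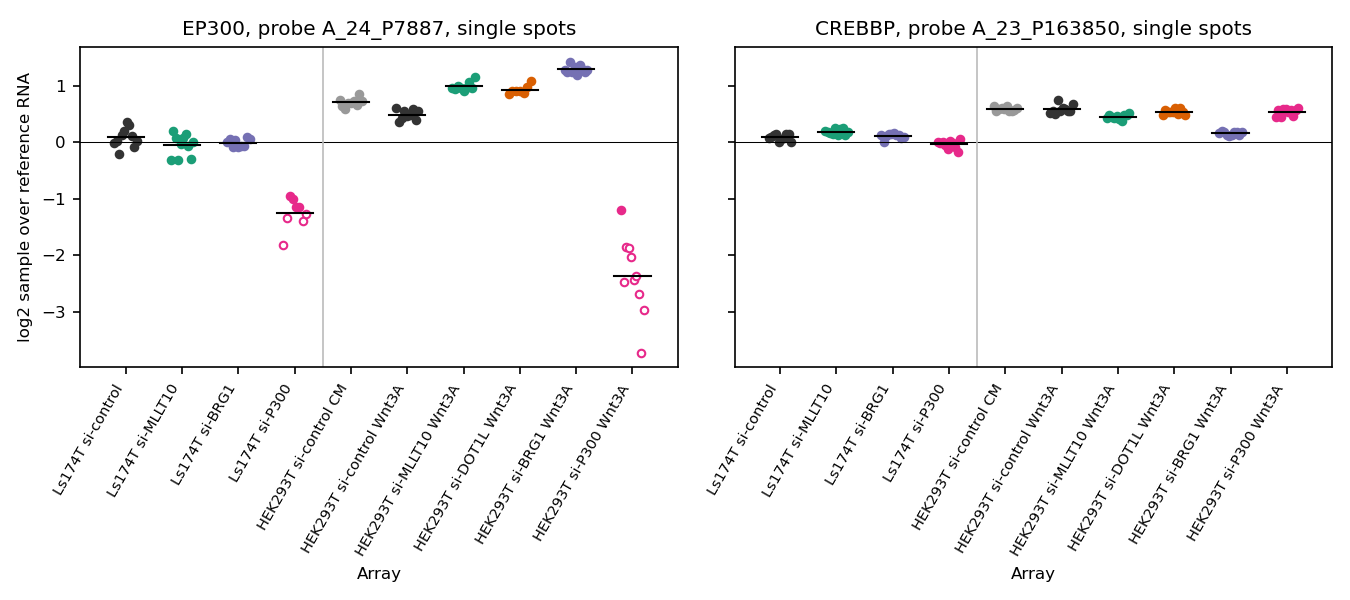
Single spots of the 10-spot probes of EP300 (left) and CREBBP (right) on the 10 reference arrays, as log2 sample over reference RNA on the vertical axis. Filled points are spots whose sample signal was well above background, open points are not, and the bar is the mean. The EP300 spots of both si-P300 arrays lie below those of every other array of the same line, while CREBBP spots lie between -0.18 and 0.74 throughout.

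CREBBP mRNA did not pass the threshold in p300-depleted cells of either line. Its 10-spot probe, A_23_P163850, read 0.08 in si-control and -0.04 in p300-depleted Ls174T cells, a change of -0.12 ± 0.29. In HEK293T cells it read 0.58 in si-control and 0.54 in p300-depleted cells, both with Wnt3A, a change of -0.05 ± 0.30. The SD between its spots was 0.03 to 0.07 on the reference arrays, well under the program error. The spots of the p300-depleted array overlapped those of the control in both lines. The single-spot probe A_24_P322025 changed by 0.46 ± 0.30 in Ls174T and 0.12 ± 0.29 in HEK293T cells. Its Ls174T value read -0.91 in si-control and -0.46 after p300 depletion, but also -0.46 after BRG1 depletion, so against the BRG1-depleted array of the same slide it was 0.00 ± 0.30. The third CREBBP probe, A_24_P342279, was never well-measured in a comparison.

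The largest CREBBP value of the knockdowns belonged to β-catenin depletion, by the 10-spot probe. A_23_P163850 read a log2 ratio of β-catenin-depleted over si-control RNA of 0.44 with one dye orientation and 0.64 with the other, a mean of 0.54 ± 0.16. All 20 spots were above 0, with the lowest at 0.29 and the highest at 0.82. It stayed below the 2-fold threshold, and A_24_P322025 read 0.12 ± 0.15. In HEK293T cells the 10-spot probe read lower after BRG1 depletion, with spots from 0.11 to 0.19 against 0.50 to 0.74 on the control array, which lay on another slide. The change of -0.43 ± 0.29 did not pass 1.5-fold and lay between -0.46 and -0.16 under 9 processing alternatives. A_24_P322025 read 0.04 ± 0.29.

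Among the remaining members, p300 depletion moved 1 probe past the threshold, in HEK293T cells, and it belonged to KAT2B. Across all genes, 5.76% of the well-measured probes passed 2-fold after p300 depletion in Ls174T and 12.1% passed 1.5-fold in HEK293T cells. Of the 14 member probes 12 were well-measured, and 1 was called in Ls174T (EP300) and 3 in HEK293T cells (both EP300 probes and 1 of KAT2B). The median change of the member probes, EP300 included, was 0.19 in Ls174T cells beside 0.02 for all probes, and -0.15 in HEK293T cells beside 0.01. With normexp the EP300 call in Ls174T cells was lost and NCOA3 probe A_23_P313568 passed instead, at 1.21. The median of the members was then 0.56 there, beside 0.08 for all probes. With outlying backgrounds replaced 0 of 12 passed in Ls174T cells. In HEK293T cells 2 of 12 passed with both forms of normexp.

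KAT2B, which encodes PCAF, was measured by 2 probes that did not follow each other. Probe A_32_P159651 read -0.34 in si-control, -0.32 in MLLT10/AF10-depleted, and -0.17 in BRG1-depleted Ls174T cells and 0.49 after p300 depletion, a change of 0.84 ± 0.29. In HEK293T cells it read 0.18 in control medium, 0.14 with Wnt3A, -0.41 after MLLT10/AF10, -0.05 after DOT1L, -0.13 after BRG1, and -0.46 after p300 depletion. The change after p300 depletion was -0.60 ± 0.29 there, just past 1.5-fold, and it missed the threshold with the sample channel alone (-0.45) and with both forms of normexp (-0.53 and -0.54). The p300-depleted array was thus the highest of 4 in Ls174T and the lowest of 6 in HEK293T cells. Within a slide, against BRG1 depletion, the differences were 0.66 ± 0.29 and -0.33 ± 0.29. Probe A_23_P41128 changed by 0.25 ± 0.36 in Ls174T and 0.14 ± 0.33 in HEK293T cells.

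**Figure D2:**
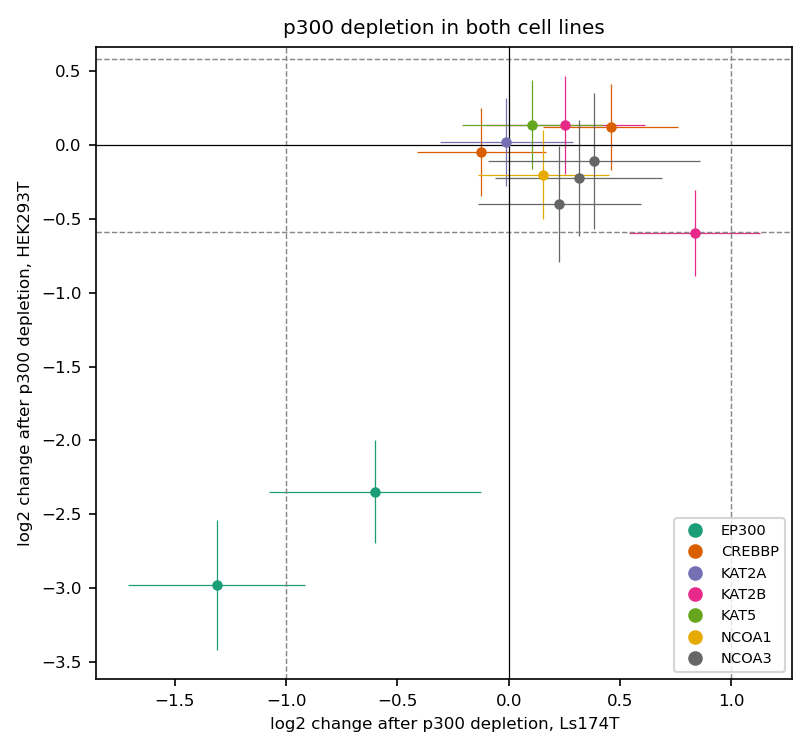
Change of 12 member probes after p300 depletion in Ls174T (horizontal, log2, against si-control) and HEK293T cells (vertical, log2, against si-control with Wnt3A), with program errors as bars and dashed lines at 2-fold and 1.5-fold. The 2 EP300 probes lie to the lower left, KAT2B probe A_32_P159651 to the lower right at 0.84 and -0.60, and the other 9 probes inside all lines.

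KAT2A and KAT5 passed no threshold in the 9 comparisons. KAT2A, the GCN5 acetyltransferase, lay between 0.52 and 0.81 on all 10 reference arrays, and its changes after p300 depletion were -0.01 ± 0.30 in Ls174T and 0.02 ± 0.30 in HEK293T cells. After β-catenin depletion it read -0.64 and -0.22 in the 2 dye orientations, a mean of -0.43 ± 0.15 that did not pass 2-fold. KAT5 lay between 0.93 and 1.09 in Ls174T and between 0.49 and 0.81 in HEK293T cells, and none of its changes passed a threshold.

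Of the p160 coactivators, NCOA1 and NCOA3 could be compared. NCOA1 lay between -0.63 and -0.38 in Ls174T and between 0.52 and 0.81 in HEK293T cells, and none of its changes within a line passed a threshold. The share of all probes that separate the lines in this way was not counted. Between the control arrays of the lines 32.9% of all probes passed 2-fold. The 3 NCOA3 probes lay below the reference RNA on every reference array, from -3.09 to -1.48. In HEK293T cells they were highest in control medium and in BRG1-depleted cells and lower with Wnt3A alone. Against the BRG1-depleted array of the same slide, all 3 were lower after p300 depletion and passed 1.5-fold, at -0.61 ± 0.38, -0.75 ± 0.43, and -0.60 ± 0.38 for A_23_P120442, A_23_P313560, and A_23_P313568. The values stayed below 0 under every processing alternative, but A_23_P313568 read -0.31 with the sample channel alone, and only A_23_P313560 passed when normexp was run with outlying backgrounds replaced. Against si-control with Wnt3A their values were -0.40, -0.11, and -0.22, and none passed. NCOA2 had too little signal to compare. Its probe read 1.17 in si-control Ls174T cells, where it was not well above background, 1.80 after MLLT10/AF10, 1.68 after BRG1, and 2.52 after p300 depletion, and from 1.25 to 2.42 in HEK293T cells, with program errors of 0.36 to 0.56.

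**Figure D3:**
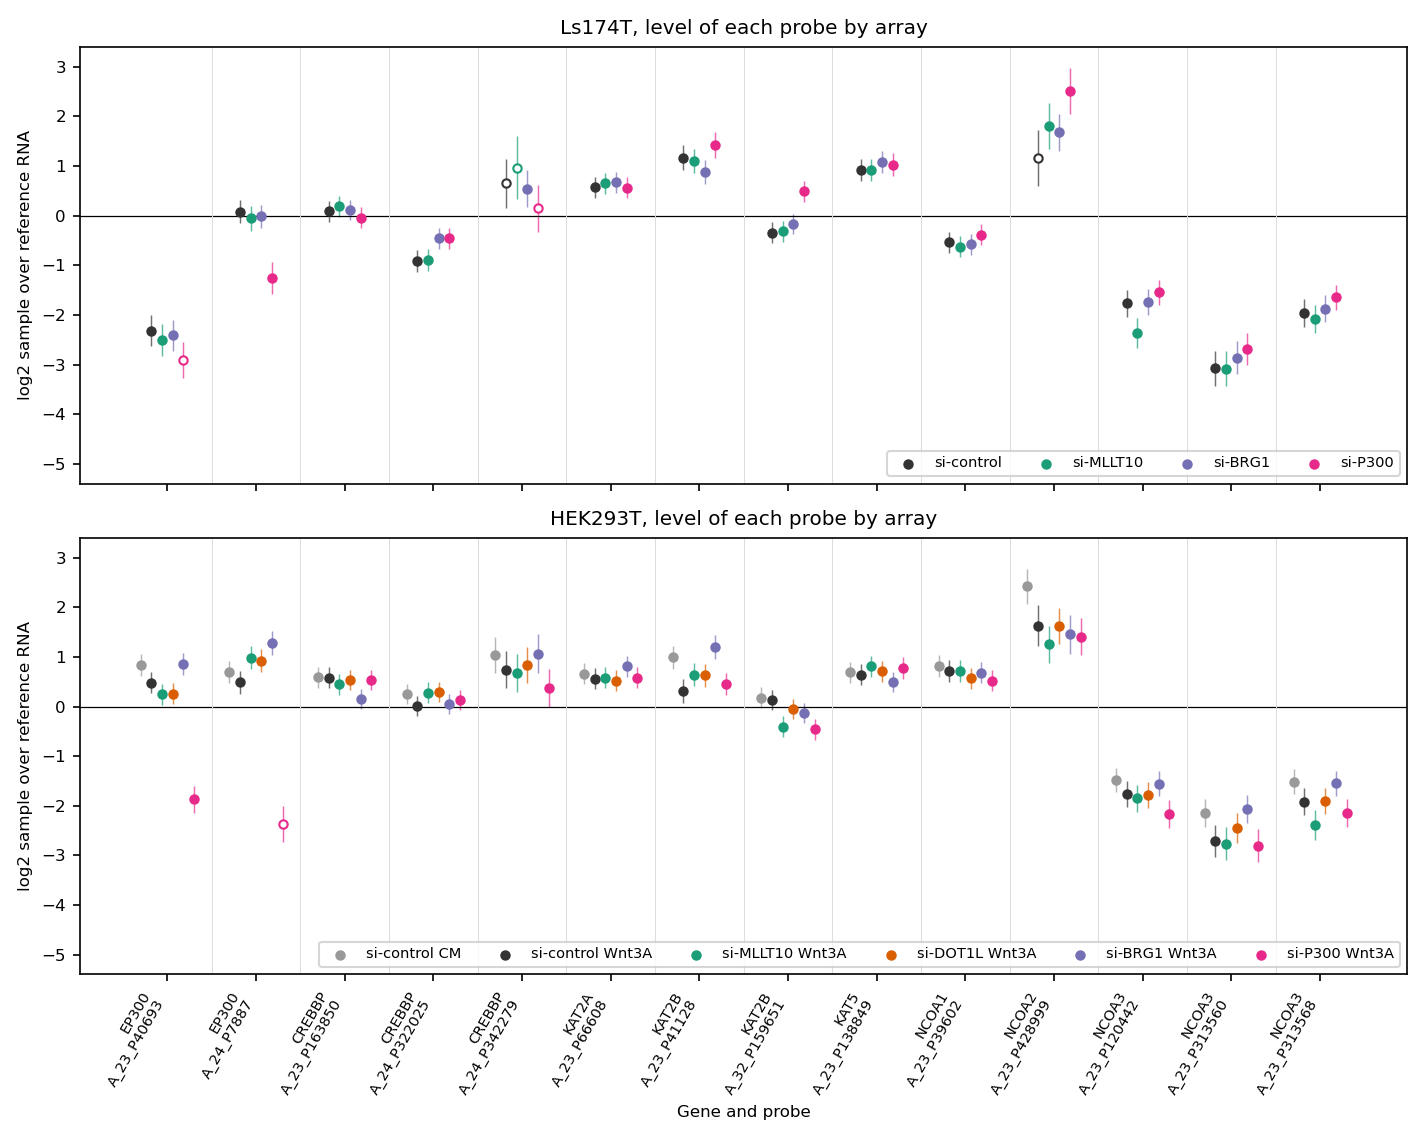
Level of all 14 member probes, as log2 sample over reference RNA (vertical), on the 4 Ls174T (top) and 6 HEK293T (bottom) reference arrays, with program errors as bars. Open points had a sample signal that was not well above background, and the NCOA2 probe and CREBBP probe A_24_P342279 were not well-measured in any comparison. The ratio is comparable between arrays for 1 probe, not between probes.

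The lines were compared before any knockdown, as si-control Ls174T minus HEK293T cells in control medium. Of 12 member probes 3 passed 2-fold, all lower in Ls174T cells, while 32.9% of all probes passed in either direction and 18.9% were lower. EP300 differed by -3.15 ± 0.38 by A_23_P40693 and by -0.61 ± 0.33 by A_24_P7887, so its probes gave unlike sizes, and the latter read 0.00 with normexp. CREBBP differed by -1.16 ± 0.30 by A_24_P322025 and by -0.50 ± 0.29 by A_23_P163850. NCOA1 differed by -1.35 ± 0.30. KAT2A (-0.08 ± 0.30) and KAT5 (0.24 ± 0.31) lay within their errors of 0. The 2 arrays lay on different slides. One slide held both lines, with si-control and si-MLLT10 Ls174T cells and si-BRG1 and si-P300 HEK293T cells. On it NCOA1 read -0.54 and -0.63 in Ls174T against 0.69 and 0.52 in HEK293T cells, and CREBBP probe A_24_P322025 read -0.91 and -0.89 against 0.04 and 0.13. EP300 probe A_23_P40693 read -2.31 and -2.50 in Ls174T cells against 0.86 in the BRG1-depleted HEK293T cells. All 3 probes were thus lower in Ls174T cells within that slide also, though the cells compared there differ in siRNA and medium. The 10-spot CREBBP probe A_23_P163850 read 0.08 and 0.19 in Ls174T against 0.16 and 0.54 in HEK293T cells. By that probe the lines overlapped on the slide.

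Wnt3A treatment of si-control HEK293T cells gave values below 0 for all 12 well-measured member probes. Their median was -0.24, whereas the median of all probes was -0.01 and 52.1% of them lay below 0. Only KAT2B probe A_23_P41128 passed 1.5-fold, at -0.68 ± 0.34, beside 6.54% of all probes, and the other KAT2B probe read -0.04 ± 0.29. With normexp the former read 0.09, and 7 of 12 member probes lay below 0, beside 63.9% of all probes, with a median of -0.11 for the members and -0.15 for all. The 3 NCOA3 probes then passed, at -1.13, -1.34, and -1.30, but read 0.07, -0.40, and -0.03 with outlying backgrounds replaced. The number below 0 was 9 of 12 with that setting, while with the sample channel alone and with median-centred arrays it was 10 of 12. EP300 read -0.36 ± 0.31 and -0.23 ± 0.32, CREBBP -0.01 ± 0.30 and -0.24 ± 0.29, and the NCOA3 probes -0.29 ± 0.36, -0.56 ± 0.43, and -0.41 ± 0.37. The 12 probes share the same 2 arrays and are not independent of each other.

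The other depletions left the members mostly inside the thresholds. None of 7 well-measured member probes passed 2-fold after β-catenin depletion (5.66% of all probes did), and none of 12 after MLLT10/AF10 (1.75%) or BRG1 depletion (5.21%) in Ls174T cells. With normexp, however, 3 of 12 passed after BRG1 depletion in Ls174T cells, EP300 probe A_23_P40693 at 1.03 and NCOA3 probes A_23_P120442 and A_23_P313568 at 1.04 and 1.22, and none with outlying backgrounds replaced. In HEK293T cells none of 12 passed 1.5-fold after MLLT10/AF10 (7.32%) or DOT1L depletion (5.62%). After BRG1 depletion 3 of 12 passed, all higher, beside 22.0% of all probes in either direction and 10.4% higher. They were EP300 probe A_24_P7887 at 0.78 ± 0.33, KAT2B probe A_23_P41128 at 0.89 ± 0.34, and NCOA3 probe A_23_P313560 at 0.64 ± 0.43, while the other EP300 probe read 0.38 ± 0.31, the other KAT2B probe -0.27 ± 0.29, and the other NCOA3 probes 0.22 ± 0.36 and 0.37 ± 0.37. With normexp, A_24_P7887 and A_23_P41128 read 0.066 and 0.077 and the 3 probes that passed were those of NCOA3, and with outlying backgrounds replaced 0 of 12 passed. The same array set against control medium instead gave 0.59 ± 0.33, 0.20 ± 0.33, and 0.08 ± 0.40. Together, 8 of 103 well-measured values in the 9 comparisons were called, and 4 of them belonged to members other than EP300. The EP300 calls include those after its own siRNA. Over all probes the share that passed ran from 1.75% to 22.0% by comparison, and no pooled share was computed.

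The EP300 probes also went apart where MLLT10/AF10 or DOT1L was depleted in HEK293T cells. A_24_P7887 changed by 0.52 ± 0.33 and 0.47 ± 0.32 against the si-control Wnt3A array, and A_23_P40693 by -0.23 ± 0.30 and -0.22 ± 0.30. Against the control medium array of the same slide they read 0.29 ± 0.32 and 0.22 ± 0.32, and -0.59 ± 0.30 and -0.58 ± 0.30. In that within-slide comparison 4 of 12 member probes passed 1.5-fold after MLLT10/AF10 depletion, all lower, beside 7.74% of all probes in either direction and 3.66% lower. After DOT1L depletion 0 of 12 passed, beside 5.76%. The 4 became 2 with the sample channel alone, 1 with median-centred arrays, and 0 with normexp and outlying backgrounds replaced, while after DOT1L depletion 3 probes passed with normexp. The 4 were A_23_P40693 of EP300, A_32_P159651 of KAT2B (-0.59 ± 0.29), and A_23_P313560 (-0.62 ± 0.43) and A_23_P313568 (-0.87 ± 0.39) of NCOA3, and these cells differ from the control also by the Wnt3A medium.

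**Figure D4:**
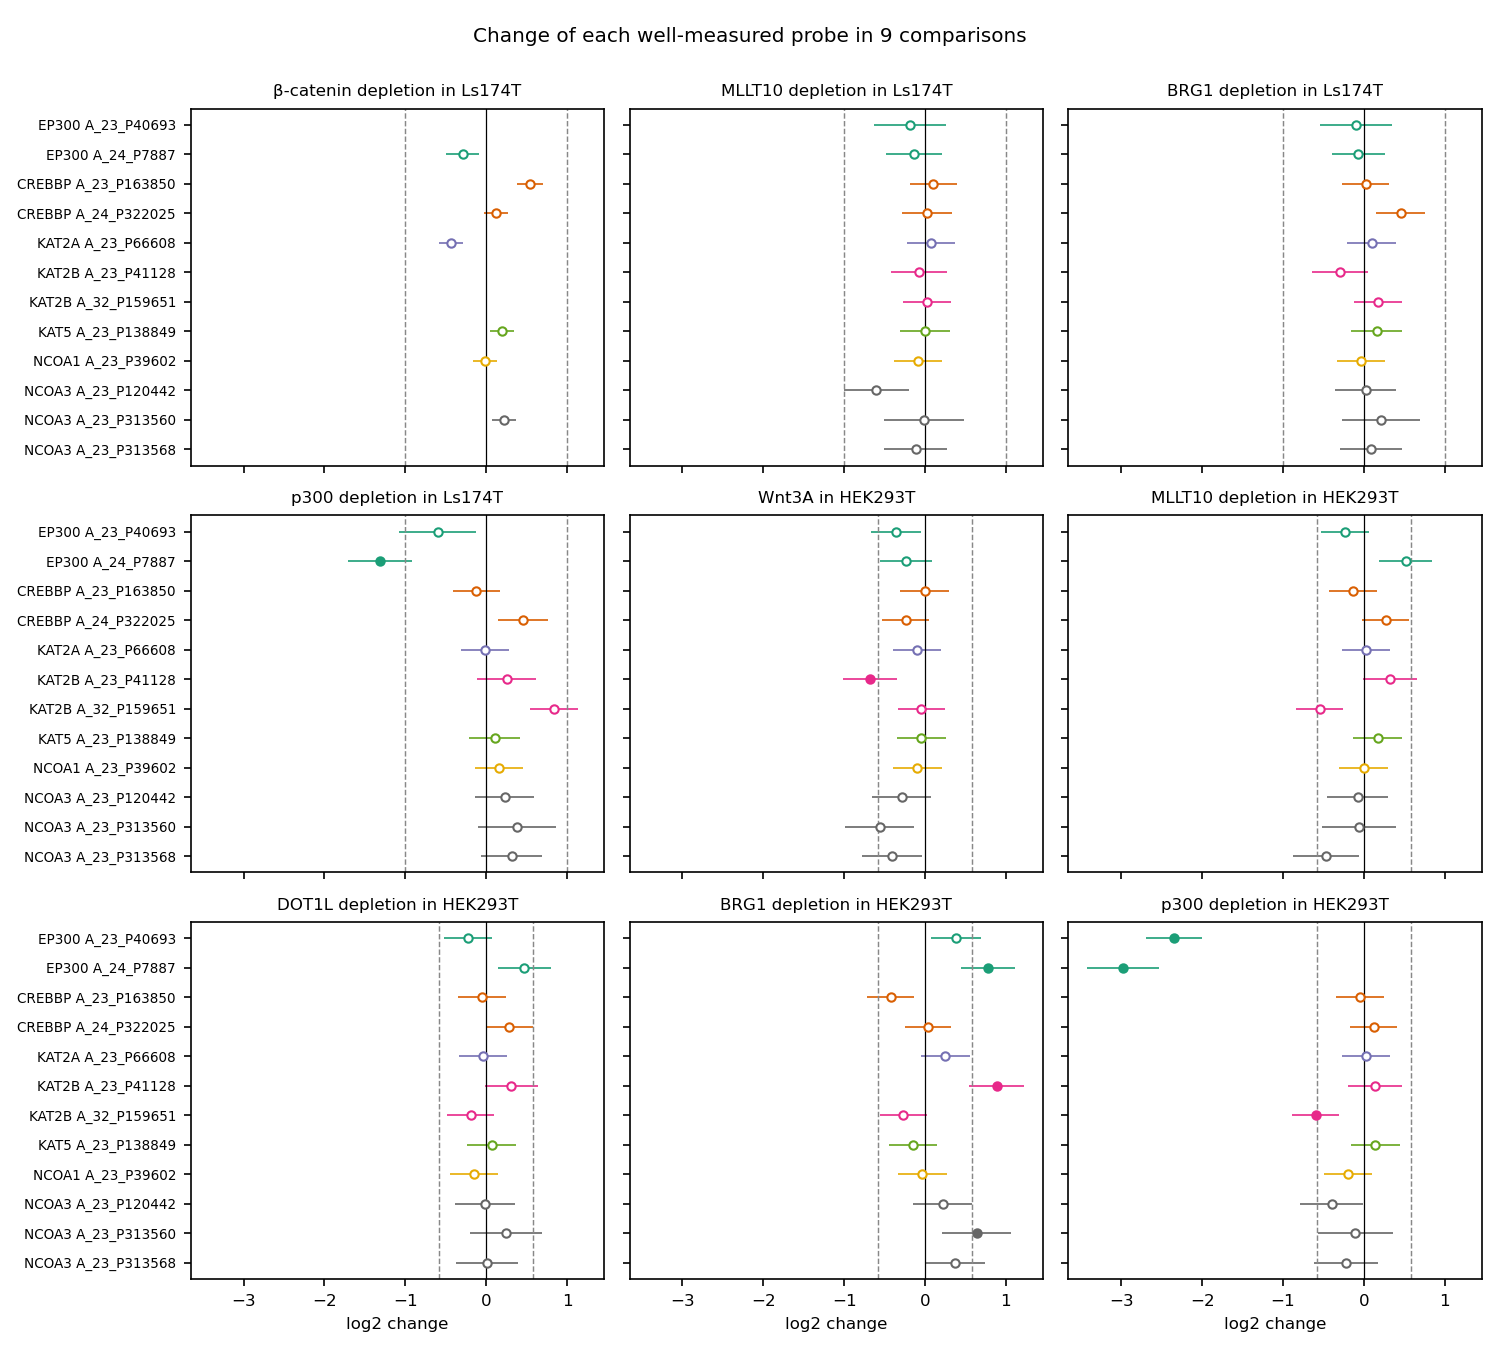
Log2 change (horizontal) of the 12 member probes that were well-measured in at least 1 of 9 comparisons, with program errors as bars. Filled points passed the threshold of the line, drawn as dashed lines at 2-fold (Ls174T) or 1.5-fold (HEK293T). Outside EP300, 4 points are filled, 1 with Wnt3A, 2 after BRG1 depletion, and 1 after p300 depletion in HEK293T cells.

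Related genes were described in 6 lists, of other acetyltransferases, SAGA and ATAC subunits, TIP60 complex subunits, histone deacetylases, partners of p300/CBP and of the p160 proteins, and acetyl-lysine readers. The list of other acetyltransferases also held the coactivator NCOA6, which is not one, and its counts include that gene. After p300 depletion in Ls174T cells, where 5.76% of all probes passed, 1 of 19 probes of the other acetyltransferases was lower (CLOCK, the circadian factor, -2.06 ± 0.64, with no signal well above background in the depleted cells), 1 of 27 of the deacetylases was higher (SIRT4, a mitochondrial sirtuin, 1.02 ± 0.32), and 1 of 20 of the partners was higher (CITED4, a transactivator that binds p300, 1.24 ± 0.60). None of 31 SAGA and ATAC, 24 TIP60, and 9 reader probes passed. The largest changes there were TADA2B at 0.54 ± 0.38, MRGBP at -0.59 ± 0.32, and BRPF3 at 0.68 ± 0.31. In the list of other acetyltransferases, among probes with signal in both arrays, it was the coactivator NCOA6 at -0.40 ± 0.30.

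After p300 depletion in HEK293T cells, where 12.1% of all probes passed, 2 of 20 probes in the list of other acetyltransferases were lower. They were CLOCK at -0.82 ± 0.30 and the coactivator NCOA6 at -0.69 ± 0.30. Of 28 deacetylase probes 2 were lower and 1 higher. HDAC5, a class II deacetylase, was lower by 1 probe at -0.86 ± 0.30, with its other probes at -0.45 and -0.25, while SIRT5 was lower by 1 probe (-0.92 ± 0.45, not well above background in the depleted cells) and higher by another (0.85 ± 0.30). Of 20 partner probes 2 were lower, CITED2, which competes for the same domain of p300 as HIF1A, at -0.64 ± 0.31, and CREB1, whose product binds CREB-binding protein, at -0.60 ± 0.31. The other CREB1 probe did not pass. None of 31 SAGA and ATAC, 24 TIP60, and 9 reader probes passed, with TADA2A (0.58 ± 0.34), RUVBL1 (0.47 ± 0.36), and BRD2 (-0.50 ± 0.31) the farthest from 0. The list medians lay between -0.05 and 0.09 in HEK293T and between 0.04 and 0.20 in Ls174T cells.

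With Wnt3A (6.54% of all probes), 1 of 20 probes of the other acetyltransferases passed, KAT6A at -0.74 ± 0.35, and its second probe read -0.16. None of the other 5 lists had a probe past 1.5-fold, and their farthest genes were ZZZ3 (-0.42 ± 0.31), EPC1 (-0.44 ± 0.32), SIRT5 (0.40 ± 0.41), CREB1 (-0.57 ± 0.34), and BRPF1 (0.20 ± 0.31). The other acetyltransferases gave 4 of 20 probes higher after MLLT10/AF10 depletion in HEK293T cells (7.32% of all probes passed, 3.51% higher). They were TAF1 (0.73 ± 0.32), 2 probes of KAT6B (0.68 ± 0.31 and 0.68 ± 0.34), and KAT6A (0.64 ± 0.35). After DOT1L depletion (5.62%, 2.1% higher) 2 of 20 were higher, TAF1 (0.64 ± 0.32) and KAT6A (0.70 ± 0.35). The KAT6A values share the si-control Wnt3A array with the Wnt3A comparison. BRG1 depletion in HEK293T cells moved 5 of 31 SAGA and ATAC probes (22.0% of all probes passed there), with DR1 higher (0.59 ± 0.30) and TADA3 (-0.96 ± 0.30), TAF5L (-0.63 ± 0.42), and both probes of the deubiquitinase USP22 (-0.68 ± 0.32 and -0.62 ± 0.39) lower. Of 24 TIP60 probes 2 probes of MORF4L1 were higher (0.60 ± 0.31 and 0.66 ± 0.30). Of 27 deacetylase probes SIRT4 was higher (0.70 ± 0.30), and SIRT5 (-0.91 ± 0.30), HDAC6 (-0.65 ± 0.31), and 2 probes of HDAC7 (-0.71 ± 0.31 and -0.65 ± 0.34) were lower. Among the partner probes MED1 was higher (0.66 ± 0.33) and CRTC1 was lower (-0.97 ± 0.30), while after MLLT10/AF10 depletion CRTC1 was higher (0.74 ± 0.32). After β-catenin depletion (5.66%, 4.48% higher) 2 of 19 deacetylase probes were higher, of SIRT6 (1.02 ± 0.16) and SIRT5 (1.13 ± 0.18). In the HEK293T depletions TAF1, KAT6A, KAT6B, DR1, TADA3, TAF5L, MORF4L1, SIRT5, and MED1 each also had a tested probe that did not pass. In these 6 lists and 9 comparisons 35 values passed in all. The share that passed ran from 0% to 20% by list and comparison, and over all probes from 1.75% to 22.0% by comparison. The genes named here for passing a threshold outside p300 depletion and Wnt3A were chosen after their values were seen.

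The genes whose pattern over the 10 reference arrays was most like that of a member were found from log2 ratios centred on the mean of each line, among 17448 probes well above background on all of them. The probe with the highest mean signal was taken for each member, which for EP300 and CREBBP is a single-spot probe. For EP300 probe A_23_P40693 these were LPGAT1 (Pearson's r = 0.975), EIF4EBP2 (0.962), and STK26 (0.958). For CREBBP probe A_24_P322025 they were PPP1R2 (0.969), ZNF2 (0.936), and RETREG1 (0.935), and for NCOA3 probe A_23_P313560 ARID4B (0.970), IGIP (0.958), and PHF6 (0.957). The EP300 probe read -1.87 on the si-P300 array of HEK293T cells and from 0.25 to 0.86 on the other arrays of that line. Whether that array alone sets the likeness was not tested. On the si-P300 array of Ls174T cells the EP300 probe was itself not well above background. The arrays share the reference RNA and in part the slide.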

How the data were processed

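The authors scanned the arrays and extracted them with the Feature Extraction program, whose version is 10.5.1.1 per the file headers and 8.5.1.1 per the labels. The deposited files hold, for each feature and channel, the median signal and local background and the background-subtracted, dye-normalized processed signal (intensity), as well as log10 of the Cy5/Cy3 ratio with its error. The deposited table of log10 ratios holds the same values, with the array of the second dye orientation turned, and differed by at most 1.56e-05 after conversion to log2. Design annotation is on hg18, and no array coordinates are used.

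Ratios were converted to log2, turned to sample over reference (or depleted over control), and subtracted between arrays. Control spots, outlier-flagged features, and features not over 2-fold above the local background in either channel on every array compared were left out. Spots of a probe were averaged. Probes were named through RefSeq accessions with exactly 1 symbol (94.9% of 29084 such features). With 1 biological replicate per condition the number of arrays limits the precision, and no test was made. The program error was combined over the arrays of a difference and, for probes of several spots, averaged over spots. No feature was saturated (0 on every array). The 10 reference arrays correlated with r of 0.546 to 0.989, and the turned pair with r = 0.872.

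The members, gene lists, and alternatives were chosen with earlier results of these data known. Genes named are all members, the siRNA targets, from each list the gene with the largest change after p300 depletion in either line and after Wnt3A among probes well above background in both arrays, and the 3 genes most like the probe with the highest mean signal of EP300, CREBBP, and NCOA3. A probe of several spots counted as above background when at least 50% of its spots were. Alternatives were normexp (offset 50) with loess in limma 3.58.1, run on the median signal since the files used hold no mean signal, the deposited table, the sample channel alone minus its 75th percentile, outlier flags ignored, stricter and no signal filter, median centring, medians over spots, other thresholds and control arrays, each dye orientation alone, and, chosen after seeing the data, normexp with outlying backgrounds replaced by the median of the array. One gene of the lists enters the counts but is not reported here by name. The calculation of changes was tested on simulated data. Analyses used Python 3.11.15, pandas 2.3.3, and R 4.3.3.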

Additional observations from a re-analysis of the deposited data

Results flagged for a closer look

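KAT2B probe A_32_P159651 went in opposite directions after p300 depletion in the 2 lines. It changed by 0.84 ± 0.29 in Ls174T and by -0.60 ± 0.29 in HEK293T cells, each over 2 times its program error, and the Ls174T minus HEK293T difference was 1.43 ± 0.41. The difference was not tested, since each side rests on 1 array for each condition. The Ls174T value stayed between 0.61 and 0.84 and the HEK293T value between -0.61 and -0.45 under 9 processing alternatives. The second KAT2B probe, A_23_P41128, read 0.25 and 0.14.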

How the results depend on the processing

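Of 103 well-measured member values, 79 moved by less than their program error with normexp, 83 with the sample channel alone, and 96 with normexp and outlying backgrounds replaced, while all 103 did so with the deposited table, with outlier-flagged features kept, with no signal filter, with median-centred arrays, and with medians over spots, and all 89 that could be computed when both channels had to be above background. The 8 calls were 12 with normexp (5 lost, 9 gained), 11 with the sample channel alone (1 lost, 4 gained), 4 when both channels had to be above background (the other 4 values were then not measured), 2 with normexp and outlying backgrounds replaced, and 3 at 2-fold everywhere. The share of all probes that passed was not counted under these settings, so the counts cannot be set against it.

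For EP300 after p300 depletion in Ls174T cells, A_24_P7887 (-1.31) read -0.15 with normexp and -0.57 with outlying backgrounds replaced, and A_23_P40693 (-0.60) read 0.88 with normexp. In HEK293T cells A_24_P7887 (-2.98) read -0.92 with normexp, -0.94 with outlying backgrounds replaced, and -3.70 against the BRG1-depleted array, and A_23_P40693 (-2.35) read -1.496 and -1.502 with the 2 forms of normexp, -1.99 with the sample channel alone, and -2.73 against the BRG1-depleted array. For CREBBP, A_24_P322025 in Ls174T cells (0.46) read 0.0023 and A_23_P163850 in HEK293T cells (-0.05) read 0.38 against the BRG1-depleted array. KAT2B probe A_23_P41128 with Wnt3A (-0.68) turned to 0.091 with normexp. The offset of normexp shrinks ratios of dim spots by construction, and the cause of the other shifts was not tested.

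Between the lines, 3 calls became 6 with normexp. The within-slide differences, 11 calls, became 7 with median-centred arrays and 3 with outlying backgrounds replaced. The list calls, 35, became 53 with normexp, 68 with the sample channel alone, 64 with no signal filter, and 20 with outlying backgrounds replaced. For these counts also, the share of all probes under each setting was not counted. No paired analysis was possible because each condition has 1 biological replicate. Only 6 of 14 member probes were well above background in the sample channel on all 12 arrays, which limits what can be said of the dimmer ones.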
